A study of Homo sapiens with 6 samples.

Results

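The ERBB family is described here at the RNA level in SN12C renal carcinoma cells: the receptors EGFR, ERBB2 and ERBB3, the EGF-family ligands NRG1, AREG, EREG, HBEGF, TGFA and BTC, and the receptor inhibitor ERRFI1. These 10 genes were chosen by name, and their probes by symbol in the platform annotation. A probe was kept if its detection p-value was under 0.05 on at least 3 of the 6 arrays. Of the 10 genes, 6 had a kept probe, with 11 probes in all among 20348 kept probes and 11646 named genes of the series. These were 7 receptor probes (3 of EGFR, 1 of ERBB2, 3 of ERBB3), 3 ligand probes (2 of NRG1, 1 of HBEGF) and 1 probe of ERRFI1. No kept probe bore the symbol AREG, EREG, TGFA or BTC, so these 4 ligands count as not detected under the rule. The annotation used here names kept probes only, and 4851 kept probes have no name in it, so a level for these ligands was not analysed here. The same limit holds for every other gene and marker said below to have no kept probe.

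The study, by its title, asks how metabolism and signalling shift in NF2-deficient tumour cells when YAP and TAZ are inhibited. Total RNA of SN12C, an established line, was hybridised to Illumina bead arrays, 3 per arm. Control cells carried the pTripz vector and GFP-luc, and knockdown cells carried GFP-luc and pTripz constructs with shRNAs against YAP and against TAZ. Both arms received doxycycline, which induces the shRNAs, for at least 3 days, after growth in medium with 10% serum, and both were without serum for the last 24 hours. The series calls the arrays of an arm technical repeats, so the p-values below measure the spread between arrays of 1 line and not between cultures. The labels do not say whether the transduced cells are a clone or a pool.

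ERBB receptors are membrane tyrosine kinases that pair with one another when a ligand binds. EGFR binds the EGF-like ligands, ERBB3 binds neuregulins such as NRG1 and has little kinase activity of its own, and ERBB2 has no known ligand and acts as a partner of the others. The ligands are made as membrane precursors and released by ADAM proteases, and in the renal tubule EGFR signalling is known for its part in growth and repair.

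Values are log2 intensities after background correction and quantile normalisation, and a change is knockdown minus control. Each array detected 41.6% to 44.3% of 47315 probes. YAP1, the targeted gene, read 8.47, 8.26 and 8.47 in arrays 1 to 3 of control cells and 7.33, 6.77 and 6.56 in those of knockdown cells, for a log2 change of -1.51 ± 0.193 (SE). WWTR1, the gene of TAZ, was without a kept probe under its symbol, so the second knockdown was not checked. Of 11 markers listed for renal epithelial tumour cells, 6 had a kept probe, among them PAX8 (5.68 in control cells), KRT8 (10.27) and VIM (12.95). PAX2, LRP2, CUBN and CDH1 were among those without one. Of these 6, 3 fell beside the ERBB changes, KRT8 by 1.07, KRT19 by 3.05 and VIM by 0.45 on the log2 scale. Among leukocyte markers CD14 had a kept probe, which was detected on all 6 arrays and rose from a mean of 7.44 to 8.15 (adjusted p = 0.00171 in limma), while PTPRC, CD3E and LYZ had none. Of 5 fibroblast markers 2 had one: COL1A1, detected on 3 control and 0 knockdown arrays, fell at least 1.34-fold, and LUM, detected on 0 control and 3 knockdown arrays, rose at least 1.17-fold. Each was thus kept through the arm in which it is higher. The 4 endothelial markers had no kept probe. The part of these markers in the ERBB changes was not tested. In RNA from whole cultures, fewer expressing cells and less RNA per cell cannot be told apart.

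Receptor RNA moved in both directions between the arms. ERBB3 fell 11.0-fold at its brightest probe, ERBB2 fell 1.30-fold, and the EGFR probe assigned to the full-length receptor rose 1.34-fold. A probe assigned to a short, soluble form of EGFR fell 1.78-fold. Of the 7 receptor probes, 5 fell, 1 rose and 1 did not pass an adjusted p of 0.05 in limma. Over all kept probes 32.3% were called, 15.8% higher and 16.5% lower in knockdown cells. Their median log2 change was 0.02. That of the 7 receptor probes, which share 3 genes and are not independent, was -0.75, the value of ERBB3 ILMN_2397602. This dim probe was detected on 3 control arrays and 1 knockdown array, so it was kept through the arm in which it is higher. Of the 6 receptor probes detected on all 6 arrays, 4 fell and 1 rose. Control and knockdown arrays did not overlap for any of the 7 receptor probes, against 45.5% of all kept probes. With each array scaled to its median over all probes, the ERBB3 probes that fell furthest were the only 2 of the 11 probes still called.

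**Figure D1:**
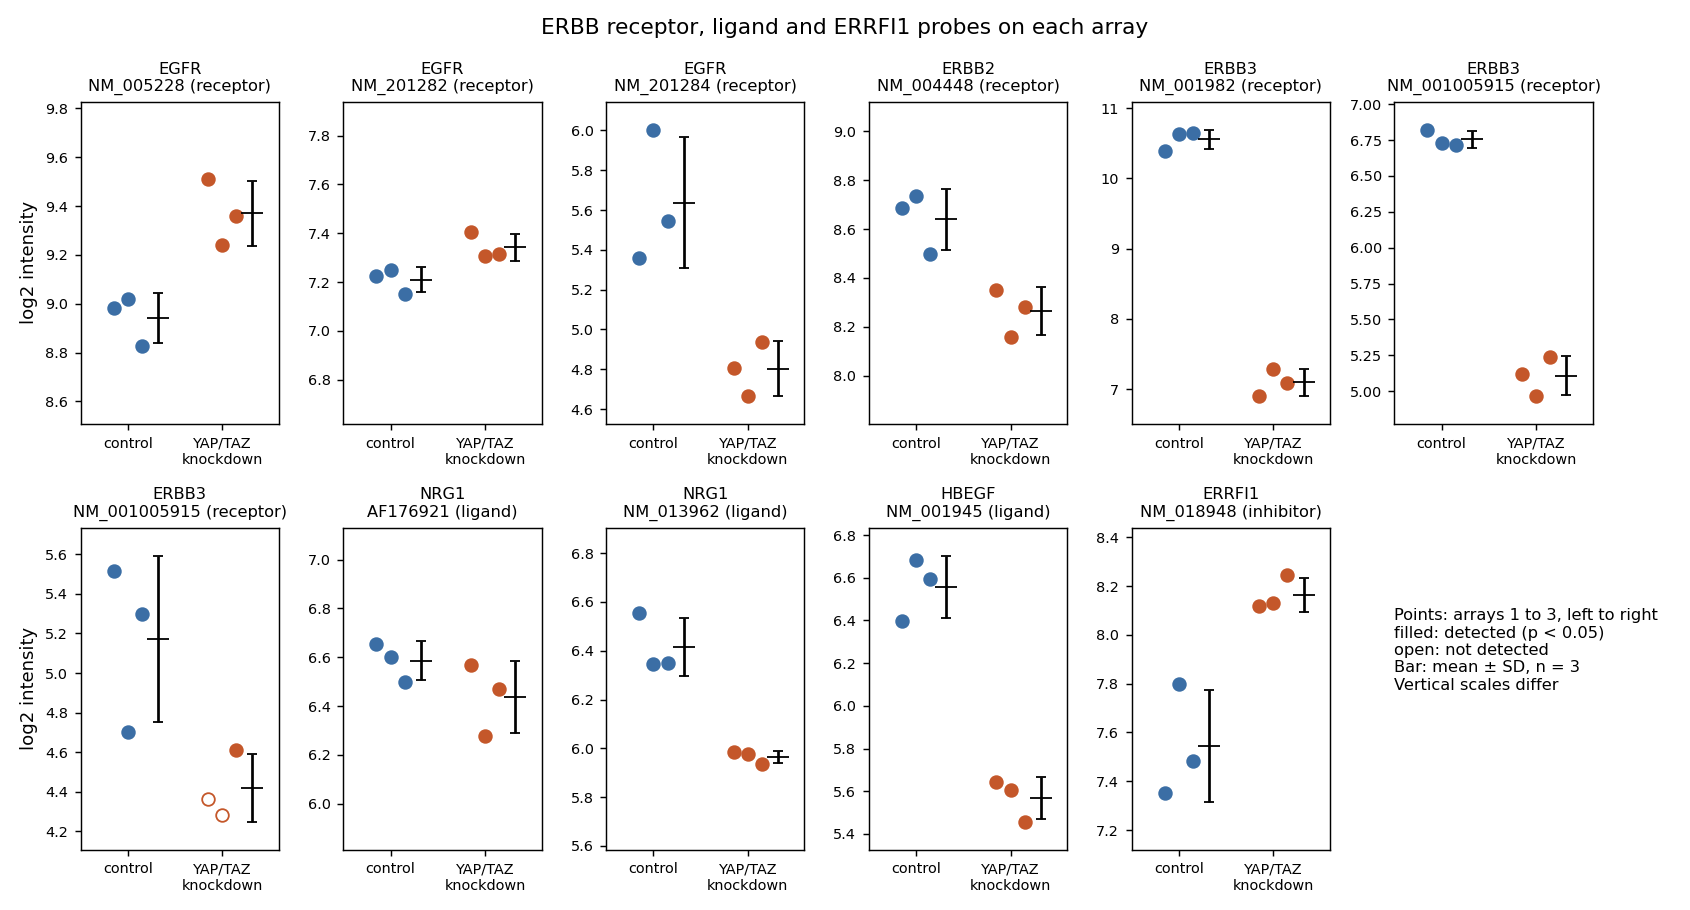
Log2 intensity (vertical axes, scales differ) of the 11 kept probes on the 3 control and 3 knockdown arrays, one panel per probe, with mean ± SD. The arms overlap only for the NRG1 probe assigned to AF176921, and 2 knockdown arrays of 1 ERBB3 probe are below the detection limit (open points).

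ERBB3, the neuregulin receptor that couples to PI3K, was read by 3 probes. The brightest, ILMN_1751346, is assigned to the RefSeq transcript NM_001982, which encodes the full-length receptor. It gave 10.40, 10.63 and 10.64 in control cells and 6.90, 7.29 and 7.09 in knockdown cells. Every control array was thus above every knockdown array by a wide margin, and all 6 arrays detected the probe. The unnormalised brightness was 1081.8, 2364.5 and 1515.2 in control cells but 228.9, 210.3 and 183.9 in knockdown cells. The means were 10.55 ± 0.138 and 7.09 ± 0.193 (SD, n = 3), and limma gave a log2 change of -3.46 ± 0.136 (SE; adjusted p = 1.48e-06). It was the 20th largest fall among all kept probes. The mean of the 3 ERBB3 probes fell 3.87-fold, but it includes ILMN_2397602, which was kept through the arm in which it is higher.

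The other 2 ERBB3 probes are assigned to NM_001005915, which encodes a short secreted form without the membrane and kinase parts. ILMN_1737993 gave 6.82, 6.73 and 6.72 in control cells and 5.12, 4.97 and 5.24 in knockdown cells, which limma fitted as a log2 change of -1.65 ± 0.115 (SE; adjusted p = 2.63e-05). Its fall of 3.13-fold was 1.68-fold without background correction and 2.07-fold with an offset of 50. ILMN_2397602 lay near the detection limit, with 5.51, 4.70 and 5.30 in control cells and 4.36, 4.28 and 4.61 in knockdown cells. It was detected on 3 control arrays and on 1 knockdown array, and its change was -0.75 ± 0.206 (SE; adjusted p = 0.0231 in limma). That call ended without control array 1 (0.063) or 3 (0.0758), without knockdown array 1 (0.0502) or 2 (0.0739), without background correction (0.0518) and without a probe filter (0.0751). Both ERBB3 probes detected on all 6 arrays therefore pointed down. ILMN_2397602, kept through the arm in which it is higher, adds nothing to this. ILMN_1751346 and ILMN_1737993, both detected on all 6 arrays, differed within an array by 3.57, 3.90 and 3.92 in control cells and by 1.78, 2.32 and 1.85 in knockdown cells. These differences did not overlap between the arms (exact two-sided permutation p = 0.1, the smallest that 3 against 3 arrays allow), but the offset of the background correction shrinks the fall of the dimmer probe more. No such difference is read for ILMN_2397602, whose knockdown values lie at the detection limit.

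EGFR, the receptor of EGF, TGFA, AREG and HBEGF, also had 3 kept probes, and these did not move together. ILMN_1798975, assigned to the full-length transcript NM_005228, gave 8.98, 9.02 and 8.83 in control cells and 9.51, 9.24 and 9.36 in knockdown cells. All knockdown arrays lay above all control arrays. The log2 change was 0.43 ± 0.119 (SE; 95% interval 0.16 to 0.70, adjusted p = 0.025 in limma). The call ended without control array 3 (0.101), knockdown array 1 (0.0615) or knockdown array 3 (0.0675).

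ILMN_1728858 is assigned to NM_201284, a shorter EGFR transcript whose product ends before the membrane part. It gave 5.36, 6.003 and 5.55 in control cells and 4.80, 4.67 and 4.94 in knockdown cells, lower on every knockdown array, and was detected on all 6 arrays. Its log2 change was -0.83 ± 0.173 (SE; adjusted p = 0.00673 in limma). This fall of 1.78-fold was 1.22-fold without background correction and 1.36-fold with an offset of 50, and it passed in both. ILMN_1696521, assigned to NM_201282, another soluble form, gave 7.23, 7.25 and 7.15 in control cells and 7.41, 7.31 and 7.31 in knockdown cells. The arms did not overlap here either, but the change of 0.13 ± 0.103 (SE; 95% interval -0.10 to 0.37) did not pass (adjusted p = 0.37 in limma).

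Within each array the NM_005228 probe exceeded the NM_201284 probe by 3.62, 3.02 and 3.28 in control cells and by 4.71, 4.57 and 4.42 in knockdown cells. The changes of the 2 probes thus differed by 1.26 on the log2 scale, and the arms did not overlap. Without background correction the 2 changes were 0.38 and -0.29. Of the 7 probe pairs of EGFR, ERBB3 and NRG1, compared after their values were seen, 2 involve ERBB3 ILMN_2397602 and are not read here, and for the others the exact permutation p was 0.1 each and 0.1 adjusted over the 7. Averaging the 3 EGFR probes gave a change of -0.09 that did not pass (adjusted p = 0.563 in limma). Probe sequences were not analysed here, so which transcripts a probe reads rests on the annotation.

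**Figure D2:**
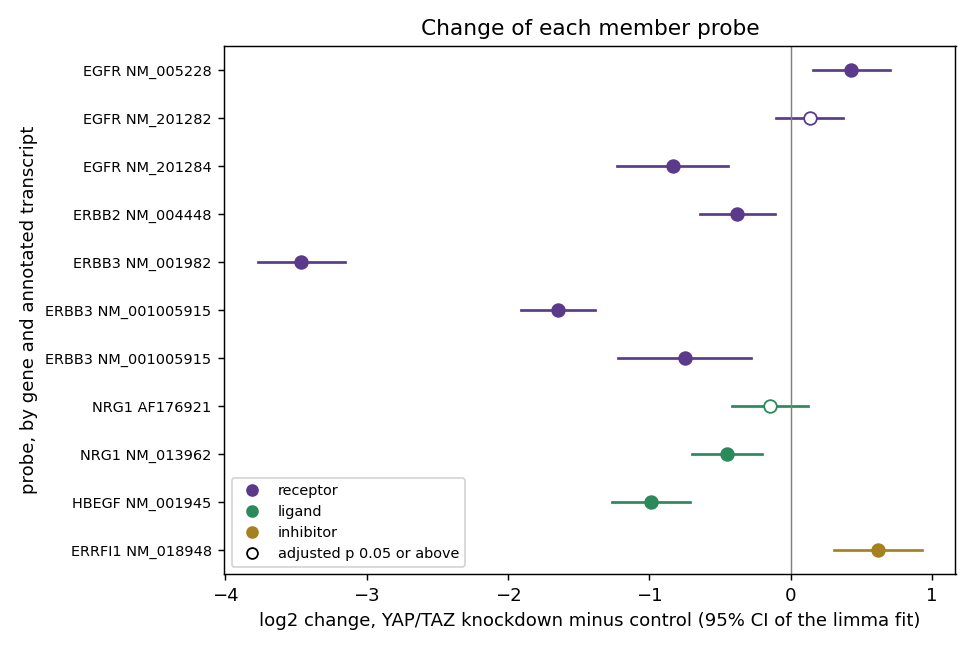
Log2 change of each probe (horizontal axis, knockdown minus control) with the 95% interval of the limma fit; rows are probes named by gene and annotated transcript, coloured by role. ERBB3 NM_001982 lies at -3.46, and the 3 EGFR probes lie on both sides of 0.

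ERBB2, the receptor without a ligand of its own, was read by 1 probe (ILMN_2352131). It gave 8.69, 8.74 and 8.50 in control cells and 8.35, 8.16 and 8.28 in knockdown cells, so the arms lay close to each other without overlapping. The log2 change of -0.38 ± 0.117 (SE; 95% interval -0.64 to -0.11) had an adjusted p of 0.0377 in limma. It missed the threshold without control array 1 (0.0881), 2 (0.11) or 3 (0.0511) and without knockdown array 2 (0.125) or 3 (0.0876). ERBB4, the remaining receptor of the family, had no kept probe under its symbol.

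For the 2 of 6 ligands with a kept probe, RNA was lower or did not pass. HBEGF, which encodes a heparin-binding ligand of EGFR, fell 1.99-fold. Its probe (ILMN_2121408) gave 6.40, 6.68 and 6.59 in control cells and 5.64, 5.60 and 5.46 in knockdown cells, with every knockdown array below every control array. The means were 6.56 ± 0.147 and 5.57 ± 0.0981 (SD, n = 3), and the log2 change was -0.99 ± 0.121 (SE; adjusted p = 0.000482 in limma). Without background correction HBEGF fell 1.39-fold.

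NRG1, a ligand of ERBB3, had 2 kept probes of unlike change. ILMN_1737252, assigned to NM_013962, the glial growth factor 2 form, gave 6.55, 6.34 and 6.35 in control cells and 5.98, 5.98 and 5.94 in knockdown cells. It fell by 0.45 on the log2 scale (SE 0.109, adjusted p = 0.0141 in limma), with no overlap of the arms. ILMN_1844593, assigned to the mRNA AF176921, gave 6.65, 6.60 and 6.50 in control cells and 6.57, 6.28 and 6.47 in knockdown cells, which overlap. Its change of -0.15 ± 0.119 (SE; 95% interval -0.42 to 0.12) did not pass (adjusted p = 0.398 in limma). Of the 3 ligand probes, 2 fell, 0 rose and 1 did not pass. Over all kept probes 16.5% were called lower and 15.8% higher, and these 3 probes of 2 genes were not tested as a set. Beside these, EGF, EPGN, NRG2, NRG3 and NRG4, the rest of the ligand family, had no kept probe under their symbols.

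ERRFI1, also known as MIG6, encodes a cytoplasmic protein that binds active ERBB kinases and inhibits them, and its transcription is known to be induced by the receptors it restrains. Its probe (ILMN_1665510) gave 7.35, 7.80 and 7.48 in control cells and 8.12, 8.13 and 8.24 in knockdown cells. All knockdown arrays were above all control arrays, and control array 2 was the nearest to them. ERRFI1 rose 1.54-fold, a log2 change of 0.62 ± 0.137 (SE; 95% interval 0.31 to 0.93, adjusted p = 0.00928 in limma). Thus the inhibitor and the full-length EGFR probe were higher in the cells in which ERBB3, ERBB2, HBEGF and 1 NRG1 probe were lower.

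**Figure D3:**
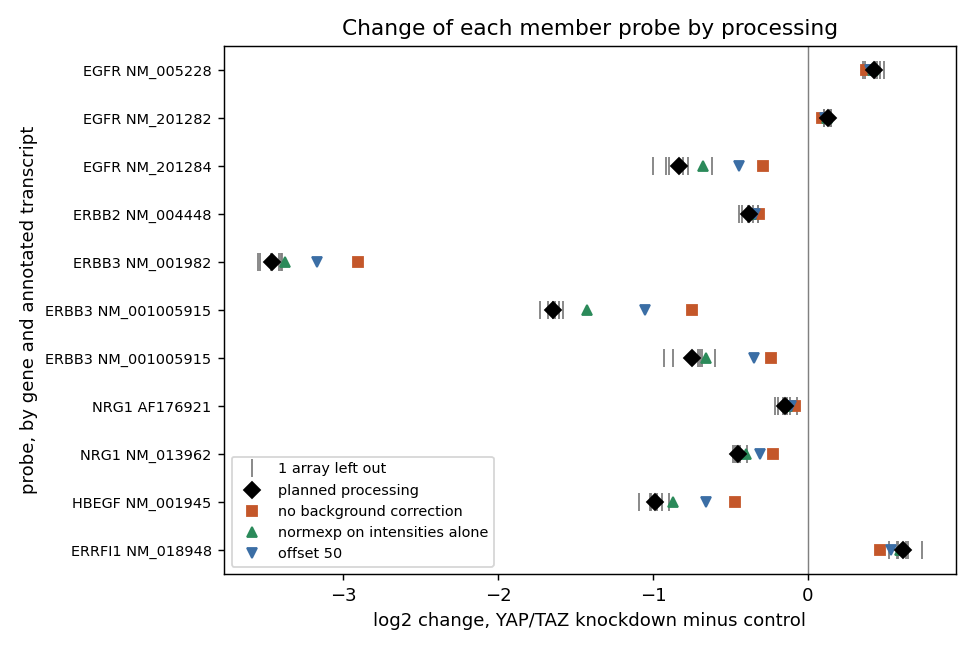
Log2 change (horizontal axis, knockdown minus control) of each of the 11 probes under the planned processing, 3 other background settings and with 1 array left out; rows are probes. Every probe keeps its side of 0 in these settings, and the falls of dim probes such as ERBB3 NM_001005915 shrink without background correction.

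Promoter sequences are shown for EGFR, ERBB2, HBEGF and ERRFI1, which changed, and not for ERBB3 and NRG1, which changed too. The promoter set used here held no ERBB3 window, and NRG1 windows were not analysed, so the matches below cover neither gene. They are from RefSeq (GRCh38.p14) and run from 250 bases before to 50 after a transcript start, in the direction of transcription. TEAD factors, the DNA-binding partners of YAP and TAZ, bind around GGAATG, and SP1-type factors to the GC box GGGCGG. For AP-1 factors the letters TGANTCA were taken, with N any base, so a match may hold any middle base. Both strands were searched for these letters, and capitals mark matches, which may overlap. For EGFR 2 starts are listed, an upstream one and one inside the gene. For ERBB2 1 start is listed. Whether it is the start of the transcript to which the ERBB2 probe is assigned was not checked.
EGFR upstream start, chr7:55018767-55019066, plus strand: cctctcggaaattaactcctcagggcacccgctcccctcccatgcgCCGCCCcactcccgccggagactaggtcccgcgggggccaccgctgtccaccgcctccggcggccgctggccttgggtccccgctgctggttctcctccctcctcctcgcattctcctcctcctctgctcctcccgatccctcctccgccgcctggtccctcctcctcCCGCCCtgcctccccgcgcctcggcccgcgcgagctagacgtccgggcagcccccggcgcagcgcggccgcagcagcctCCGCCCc
EGFR internal start, chr7:55109589-55109888, plus strand: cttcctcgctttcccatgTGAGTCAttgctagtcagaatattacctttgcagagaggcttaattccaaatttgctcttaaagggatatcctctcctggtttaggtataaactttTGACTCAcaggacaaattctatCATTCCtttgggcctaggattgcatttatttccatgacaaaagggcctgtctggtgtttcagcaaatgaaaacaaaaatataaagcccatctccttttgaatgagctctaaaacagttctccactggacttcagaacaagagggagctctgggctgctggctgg
ERBB2, chr17:39687844-39688143, plus strand: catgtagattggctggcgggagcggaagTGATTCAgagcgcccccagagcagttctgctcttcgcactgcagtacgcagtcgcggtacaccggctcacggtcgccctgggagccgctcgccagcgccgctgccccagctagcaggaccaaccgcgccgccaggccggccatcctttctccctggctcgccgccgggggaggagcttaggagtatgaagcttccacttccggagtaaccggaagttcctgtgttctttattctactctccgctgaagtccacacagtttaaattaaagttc
HBEGF, chr5:140346554-140346853, minus strand: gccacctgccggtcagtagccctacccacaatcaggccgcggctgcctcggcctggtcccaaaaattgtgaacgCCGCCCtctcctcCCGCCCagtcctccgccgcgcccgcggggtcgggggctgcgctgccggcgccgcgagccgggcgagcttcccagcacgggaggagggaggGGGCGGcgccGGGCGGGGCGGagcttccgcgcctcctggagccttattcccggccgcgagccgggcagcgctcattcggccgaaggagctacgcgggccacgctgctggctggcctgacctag
ERRFI1, chr1:8026260-8026559, minus strand: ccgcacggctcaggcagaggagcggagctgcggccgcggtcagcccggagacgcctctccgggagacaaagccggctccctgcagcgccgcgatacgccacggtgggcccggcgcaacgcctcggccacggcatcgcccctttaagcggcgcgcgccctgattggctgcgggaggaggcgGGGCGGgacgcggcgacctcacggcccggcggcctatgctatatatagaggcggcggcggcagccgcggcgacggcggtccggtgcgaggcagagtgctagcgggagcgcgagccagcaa

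The TEAD letters were in 1 of these 5 windows of 4 genes, the internal EGFR start, which also held 2 matches to the AP-1 letters. The listed ERBB2 window held 1 match to the AP-1 letters, TGATTCA. The upstream EGFR start, HBEGF and ERRFI1 held neither of these motifs. GC boxes numbered 3 at the upstream EGFR start, 5 at HBEGF, 1 at ERRFI1 and 0 at ERBB2. Of 35116 promoter windows of the same length, 14.0% held the TEAD letters, 7.71% the AP-1 letters and 45.0% a GC box. Of the ligands without a kept probe, EREG held 1 TEAD match. A match is a description of the letters and not of binding.

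Genes that act around the receptors were compared with 1 probe per gene, the brightest, in a fit over 11646 genes. Of 63 measured genes on the lists, 13 rose, 7 fell and 43 did not pass, a share called of 31.7%. Over all genes 39.8% were called, 20.3% higher and 19.5% lower, so the share among these genes lies below that of all genes. The list median was 0.09 on the log2 scale, against 0.03 over all genes. The lists were drawn up with earlier results of these data known. Without control array 3 the count was 13, and with scaling to the median over all probes it was 3 (GRB2, CBLB and LRIG1). With the replicate number as a block it was 24, 15 higher and 9 lower, as 4 more genes passed in limma: STAT5B (log2 change 0.36, adjusted p = 0.0153 with the block and 0.068 without), CBL (-0.36, 0.0162 and 0.122), RHBDF2 (-0.33, 0.0288 and 0.0743) and RHBDL2 (0.33, 0.0251 and 0.625).

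Among adaptors and effectors 4 of 19 rose and 1 fell, a share called of 26.3% against 39.8% of all genes. GRB2, the adaptor that links ERBB receptors to RAS through SOS proteins, read 6.55, 7.05 and 6.76 in control cells and 8.01, 8.08 and 8.07 in knockdown cells. The arms were far apart, and GRB2 rose 2.41-fold (adjusted p = 0.000163 in limma), as its second kept probe did (log2 change 1.43). SHC1, which hands the receptor signal to GRB2, rose by 0.59 on the log2 scale (0.0018). A second kept SHC1 probe rose by 0.53, while another gave 0.17 and did not pass. STAT3, a transcription factor downstream of EGFR, rose by 0.50 (0.024), but its 2 other kept probes did not pass. NCK2, an adaptor to the actin cytoskeleton, fell by 0.53 (0.011), while a second probe gave -0.01. The calls of STAT3 and NCK2 ended with the mean of their probes (0.0565 and 0.0896). They also ended without control array 3 (0.0733 and 0.051), and that of STAT3 without control array 2 (0.0758) or knockdown array 1 (0.0543) or 3 (0.071).

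Of 24 genes of receptor turnover and negative control, 4 rose and 4 fell, a share called of 33.3% against 39.8% of all genes. CBLB, a ubiquitin ligase that directs activated EGFR to degradation, read 7.09, 7.34 and 7.20 in control cells and 8.77, 8.46 and 8.21 in knockdown cells, and rose 2.41-fold (adjusted p = 0.000299 in limma). LRIG1, a membrane protein that promotes degradation of ERBB receptors, read 5.56, 5.86 and 5.47 in control cells and 4.29, 4.25 and 4.26 in knockdown cells. This brightest LRIG1 probe was detected on 3 control and 0 knockdown arrays. It was thus kept, and counted among the 4 that fell, through the arm in which it is higher. Its fall was at least 2.14-fold. The fit, on values without that bound, gave a log2 change of -1.36 (adjusted p = 6.14e-05 in limma). Without background correction the fall was 1.38-fold, and with an offset of 50 it was 1.57-fold. The second kept LRIG1 probe (ILMN_1707342) changed by -0.83 on the log2 scale. Without any 1 control array the brightest probe no longer passes the detection filter, and LRIG1, read by the other, fell 1.76-fold to 1.80-fold. PTPRK, a receptor phosphatase with EGFR among its substrates, rose by 0.88 on the log2 scale (0.000451), and PTPN1, a phosphatase that acts on internalised EGFR, fell by 0.89 (0.00321).

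Ligand release genes gave 3 of 10 higher and 1 lower, before RHBDL2 and RHBDF2 join them with the block. This share called of 40% is close to the 39.8% of all genes. FRMD8, which stabilises the iRhom and ADAM17 complex, rose by 0.72 on the log2 scale (adjusted p = 0.00107 in limma), and RHBDF1, which encodes iRhom1, by 0.53 (0.00391). ADAM9, a protease that can shed HBEGF, rose by 0.79 (0.0233), a call that ended without control array 1 (0.0667) or 3 (0.084). ADAM19 fell by 0.38 (0.0223), a call that ended without control array 2 (0.0701) or 3 (0.0757) or knockdown array 3 (0.0825). ADAM17, the main sheddase of EGFR ligands, gave 0.01, and ADAM10 gave 0.23, and neither passed. Of 10 chaperones and membrane partners 30% were called, against 39.8% of all genes. MUC1 and CD44 rose by 0.45 and 0.38 and CD9 fell by 0.31 on the log2 scale. In the fit over all kept probes this CD9 probe did not pass (adjusted p = 0.0541 in limma). Other kept probes of MUC1 (0.19) and CD9 (-0.12) did not pass, and other CD44 probes gave 0.82, which passed, and 0.26, which did not. With the mean of probes the calls of MUC1 and CD9 ended (adjusted p = 0.0669 and 0.163 in limma). The calls of MUC1, CD44 and CD9 each ended when 1 of several arrays was left out, with adjusted p up to 0.0903, 0.0717 and 0.109. MUC1 missed it without control array 3 or knockdown array 1, CD44 without control array 1 or knockdown array 2, and CD9 without any 1 of the 6 arrays. For the HSP90 genes and CDC37, chaperones of ERBB2, changes ran from -0.24 to 0.15 and did not pass in the planned fit. HSP90AB1, at -0.24, passed in some other settings. Its adjusted p in limma was 0.0274 without background correction, 0.043 with an offset of 50 and 0.0476 with another prior.

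**Figure D4:**
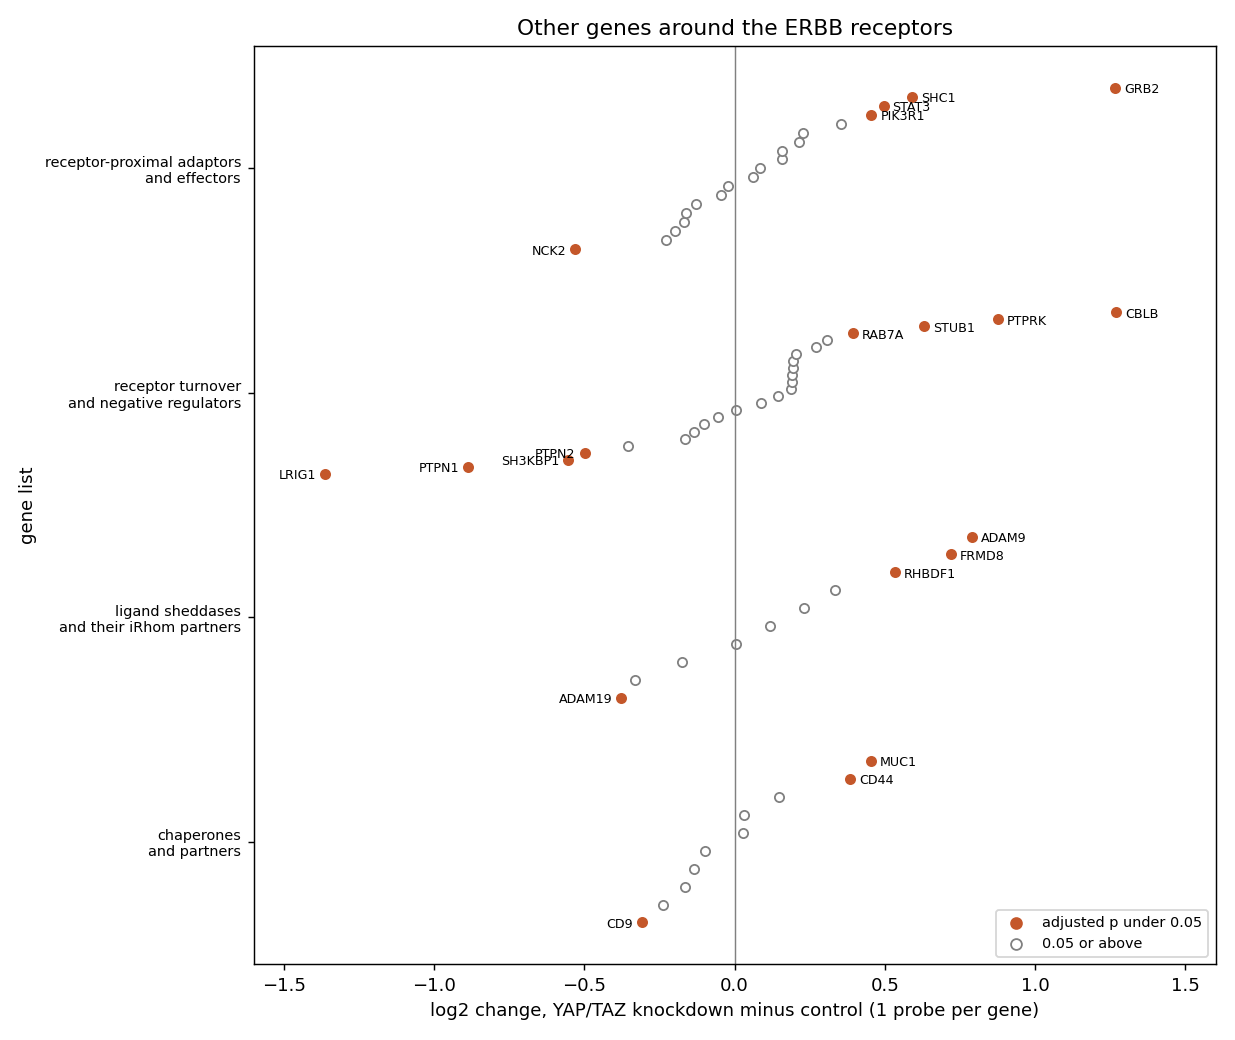
Log2 change (horizontal axis, knockdown minus control, 1 probe per gene) of 63 genes around the ERBB receptors, in rows by list; filled points passed an adjusted p of 0.05 and are named. GRB2 and CBLB lie furthest to the right and LRIG1 furthest to the left.

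Genes whose array-by-array values were most like those of a member were taken by the smallest Euclidean distance between mean-centred log2 values over the 6 arrays, among 4633 called genes. For ERBB3 these were PPARG (distance 0.236), a nuclear receptor of lipid metabolism, SNAI2 (0.264), a transcription factor of epithelial-mesenchymal transition, and TOX2 (0.29). Their log2 changes were -3.31, -3.48 and -3.68. For HBEGF they were SCO1 (0.0608), a copper chaperone of cytochrome oxidase, BCAR3 (0.0829), an adaptor protein, and LPIN1 (0.104), a phosphatidate phosphatase, with changes of -0.98, -0.95 and -1.04. With 2 groups of arrays this measure mostly ranks genes by the size of the group difference.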

How the data were processed

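Intensities of 6 Illumina bead arrays, 3 per arm, were used as deposited, not normalised per the file headers, with a detection p-value per probe and array, also deposited. Of 48202 lines, 887 without a probe identifier were left out. The authors' deposited log2 values cover 20348 probes, the same as those kept here, and differ from the values computed here by at most 0.0238. The submitters' processing notes name limma without a version. Scanner software and genome build are not stated in the sources used here.

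Values were made with neqc of limma 3.58.1 in R 4.3.3 (normexp by detection p-values, offset 16, quantile normalisation), and arms compared with lmFit and eBayes across all 20348 kept probes. P-values are two-sided, with Benjamini-Hochberg adjustment over all probes, or over 11646 genes where 1 probe per gene was used. Errors are SE of the fit or SD of 3 arrays. Where an arm detected a probe on 0 arrays, a fold is a bound: per array of that arm, the higher of the probe's value and the lowest detected value was taken. A change on this scale understates that of dim probes because of the offset. The fit was tested on simulated data. Depth has no counterpart on arrays, where the number of arrays limits precision.

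Of the kept probes, 15493 had 1 symbol in the platform annotation, 4 several and 4851 none. Of those with 1 symbol, 15484 matched a current gene record, and 0 symbols changed. Members and lists were chosen with earlier results of these data known. Named genes were all members, up to 4 called genes per list with the largest changes, and the 3 genes most alike to ERBB3 and to HBEGF. Other list genes are named where a group is described. Arrays with the same number deviated together (correlations 0.629, 0.252 and 0.464 over kept probes), so the numbers were also fitted as a block. Control 3 and knockdown 2 correlated at 0.377, above control 2 and knockdown 2, and control 2 and knockdown 3 at 0.237. A pairing by number is thus clear for array 1 only. Alternatives were other backgrounds, scalings, filters, probe summaries and priors, the deposited log2 values, and each array left out.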

Additional observations from a re-analysis of the deposited data

How the results depend on the processing

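With arrays scaled to the median of all background-corrected probes, most of which are not detected, 1555 probes were called in place of 6576. In that setting limma called 2 receptor probes (4 at an unadjusted p under 0.05), 0 ligand probes (1), 0 of the ERRFI1 probe (0) and 3 pathway genes. Scaling to the median of detected probes, added after the data were seen, gave 3 receptor probes and 1 ligand probe. There EGFR NM_005228, ERBB2, ERBB3 ILMN_2397602 and NRG1 NM_013962 missed the threshold (0.0625, 0.0676, 0.159 and 0.0502), with folds of 1.32, 1.32, 1.64 and 1.35 against 1.34, 1.30, 1.68 and 1.37. These scalings left every member's direction as it was, while the falls of HBEGF and EGFR NM_201284 moved more without background correction (to 1.39-fold and 1.22-fold). With 1 probe per gene, which tests fewer features, 3 receptors and 1 ligand were called, and with the mean of probes 2 receptors. That mean turned EGFR from 0.43 to -0.0909, because its probes differ in sign, and brought the mean of NRG1 past the threshold (0.0474).

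Leaving out 1 array gave 4409 to 5817 probes called, 3 to 5 receptor probes, 2 ligand probes, 1 ERRFI1 probe and 13 to 19 pathway genes. The full-length ERBB3 probe and ILMN_1737993 stayed called in every alternative run that tested them, with folds from 7.51 to 11.8 and from 1.68 to 3.32. ILMN_1737993 was not tested by itself with 1 probe per gene or with the mean of probes. The mean of the 3 ERBB3 probes, which includes ILMN_2397602, was called at 3.87-fold. HBEGF and ERRFI1 missed it only with scaling to the median of all probes (0.0674 and 0.281). With the replicate number as a block 8271 probes were called, 6 receptor probes, 2 ligand probes and 24 pathway genes, and the block changed no member's call. The deposited log2 values gave the same counts. Brightness over background limits ERBB3 ILMN_2397602 and EGFR NM_201284, whose detection p-values on knockdown arrays reached 0.381 and 0.026.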
